A study of Mus musculus with 8 samples.

Results

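This report describes 10 genes of thin filament protein families, cardiac, skeletal and cytoskeletal forms among them, in the hearts of AE3-null and wild-type mice. These are the troponin T genes Tnnt2 and Tnnt1, the troponin I genes Tnni3 and Tnni1, the troponin C gene Tnnc1, the tropomyosin genes Tpm1, Tpm2, Tpm3 and Tpm4, and the leiomodin gene Lmod2. They were taken as the rows of the deposited count table whose Entrez number belongs to these symbols, and all 10 were found among 23282 genes. RNA-seq had been run on total RNA of hearts from 4 AE3-null and 4 wild-type mice. All animals were male, of the FVB/N strain and 4 months old. AE3-null mice carry a null genotype of Slc4a3, the gene of the AE3 chloride/bicarbonate exchanger of the cardiac muscle cell membrane, and the labels do not describe the allele further. Nothing else in the labels differed between the genotypes.

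The thin filament is a strand of actin along which tropomyosin lies, with a troponin complex at regular intervals. Troponin C binds calcium, troponin I holds the filament in its inhibited state, and troponin T ties the complex to tropomyosin. Calcium bound to troponin C relieves the inhibition, tropomyosin moves, and myosin can bind actin. Leiomodin and tropomodulin bind the pointed end of the filament and set its length. In the rodent heart the slow skeletal troponin I of the fetus, Tnni1, gives way after birth to the cardiac form, Tnni3.

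The libraries held 9133628 to 27078351 counts, and the 10 genes together took 2.21% to 2.37% of the counts of the AE3-null libraries and 2.14% to 2.22% of those of the wild-type libraries. Slc4a3 averaged 32.9 ± 1.26 CPM in AE3-null hearts and 383.5 ± 4.60 CPM in wild-type hearts (SD, n = 4 each), so each library matched its genotype label. CPM are counts divided by the library size after TMM scaling, which corrects library totals for differences in composition. Cardiomyocyte markers were abundant in every library, and none of the 10 was at 0. Their summed level was 108700 to 116300 CPM in AE3-null and 110300 to 118300 CPM in wild-type hearts. Myh6 and Atp2a2 carried most of this sum. By the test given below, Pln was higher in AE3-null hearts (log2 fold change 0.14, edgeR adjusted p 0.0116), and no other marker was called. Atp2a2 had all AE3-null values under all wild-type values (log2 fold change -0.07, edgeR adjusted p 0.134). In whole tissue, fewer cells of a type and less RNA per cell cannot be told apart.

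Of the 10 genes, Tpm4 fell and Tnnt2 rose in AE3-null hearts, and the other 8 were not called by edgeR's quasi-likelihood test at an adjusted p under 0.05. Adjustment was by Benjamini and Hochberg's method and ran over all 14136 genes tested. Across those genes 6.47% were called, 3.16% higher and 3.31% lower. The median log2 fold change of the 10 genes was -0.02, against -0.0018 over all tested genes, and the median size of the change was 0.10, against 0.09. In 3 of the 10 genes, Tnnt2, Tnnc1 and Tpm4, the CPM of the genotypes did not overlap, which was the case for 12.2% of all tested genes.

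**Figure D1:**
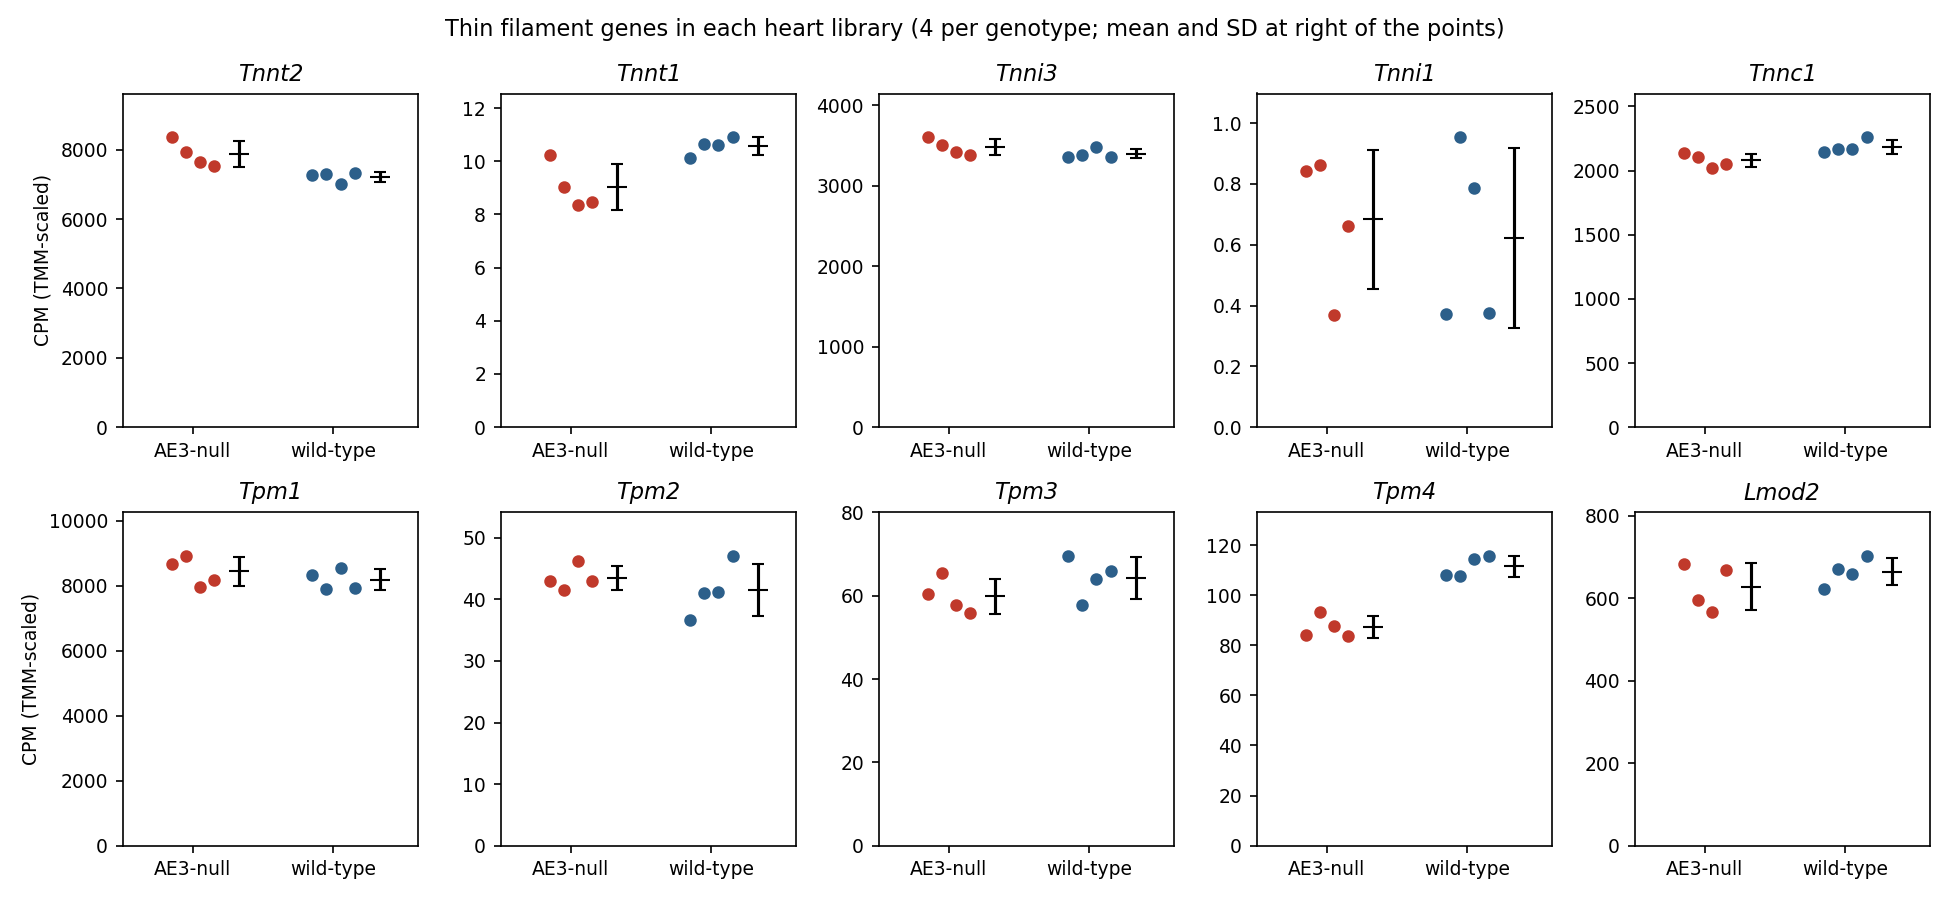
CPM of each thin filament gene (vertical axes, each from 0) in the 4 AE3-null and 4 wild-type libraries; each point is 1 library, and the bar to the right of the points gives the mean and SD. The AE3-null points of Tpm4, at 83.7 to 93.3 CPM, all lie under the wild-type points, at 107.6 to 115.8 CPM, while for Tnnt2 they all lie above.

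Levels were compared between genes per kilobase of merged exon. On this scale the subunits of the cardiac troponin complex and Tpm1 stood at the top in both genotypes. Tnnt2 stood at 6233 ± 294 CPM per kb in AE3-null and 5722 ± 114 CPM per kb in wild-type hearts (SD, n = 4 each, here and in the next sentences). Tnni3 stood at 3812 ± 109 CPM per kb in AE3-null and 3725 ± 63.7 CPM per kb in wild-type hearts. Tnnc1 stood at 2883 ± 71.6 CPM per kb in AE3-null and 3030.0 ± 72.6 CPM per kb in wild-type hearts. Tpm1 followed these troponins, and Lmod2 followed Tpm1. Tpm1 stood at 1764 ± 91.3 CPM per kb in AE3-null and 1710.0 ± 66.8 CPM per kb in wild-type hearts. Lmod2 stood at 318 ± 28.6 CPM per kb in AE3-null and 336 ± 16.8 CPM per kb in wild-type hearts. The other tropomyosins were far lower than Tpm1. Tpm4 stood at 41.0 ± 2.08 CPM per kb in AE3-null and 52.4 ± 1.96 CPM per kb in wild-type hearts. Tpm3 stood at 18.0 ± 1.27 CPM per kb in AE3-null and 19.35 ± 1.5 CPM per kb in wild-type hearts. Tpm2 stood at 18.2 ± 0.822 CPM per kb in AE3-null and 17.4 ± 1.8 CPM per kb in wild-type hearts. Tpm2 and Tpm3 were the only neighbours in this order that did not differ from each other beyond their spread. The slow skeletal and fetal troponins came last. Tnnt1 stood at 8.38 ± 0.795 CPM per kb in AE3-null and 9.81 ± 0.301 CPM per kb in wild-type hearts. Tnni1 stood at 0.537 ± 0.18 CPM per kb in AE3-null and 0.488 ± 0.232 CPM per kb in wild-type hearts. The exon length merges all protein-coding transcripts of a gene, so a gene with many alternative exons, such as Tpm1 with 4780 merged bases, is set lower than one with a compact transcript, such as Tnnc1 with 721.

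**Figure D2:**
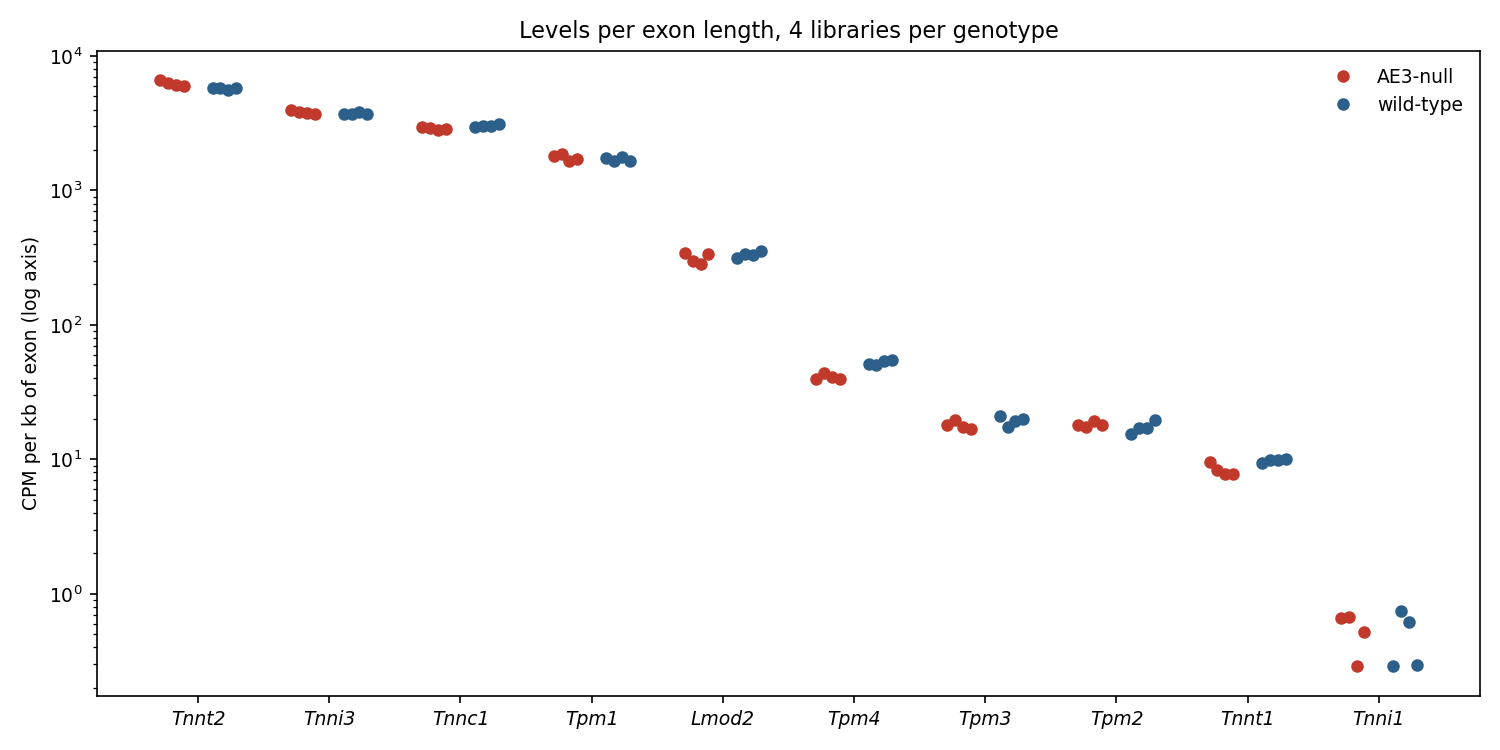
Level of each gene in CPM per kb of merged exon (vertical axis, logarithmic), with genes ordered by their wild-type mean and 1 point per library. The troponin subunit genes Tnnt2, Tnni3 and Tnnc1 and the tropomyosin Tpm1 lie at 1652 CPM per kb or more in all 8 libraries, and Tnni1 lies at 0.750 or less.

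Troponin T ties the troponin complex to tropomyosin, and Tnnt2 is its cardiac gene. Tnnt2 had 8365, 7939.5, 7654 and 7528 CPM in AE3-null replicates 1 to 4, against 7275, 7301, 7012 and 7317 CPM in wild-type replicates 1 to 4. All 4 AE3-null libraries were above all 4 wild-type libraries, and AE3-null replicate 1 was the highest. The means were 7872 ± 371 CPM in AE3-null and 7226 ± 144 CPM in wild-type hearts (SD, n = 4 each), a rise of 8.93% (log2 fold change 0.12, SE 0.03, 95% CI 0.05 to 0.20, edgeR adjusted p 0.0423). The call was lost in 8 of 17 alternatives: without robust moderation (adjusted p 0.0826) and without any single library other than AE3-null replicate 4. Without AE3-null replicate 1 the log2 fold change was 0.09 (adjusted p 0.119), and the log2 fold change stayed between 0.09 and 0.14 throughout. The atrial marker list was higher in AE3-null hearts as well, with 7 of 8 markers called. Its summed level was 4076 to 4689 CPM in AE3-null against 3075 to 3620 CPM in wild-type hearts. Nppa carried most of this sum, with means of 2783 CPM in AE3-null and 2077 CPM in wild-type hearts. The marker not called was Bmp10 (log2 fold change -0.05, edgeR adjusted p 0.862), whose groups overlapped. None of the 8 was at 0, and the part of the atrial markers in the Tnnt2 value was not tested.

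Tnnt1 encodes slow skeletal troponin T, which the developing heart also expresses. It had 10.2, 9.05, 8.37 and 8.47 CPM in AE3-null libraries, against 10.1, 10.6, 10.6 and 10.9 CPM in wild-type libraries. The groups overlapped through AE3-null replicate 1, and the log2 fold change of -0.23 (SE 0.09, 95% CI -0.41 to -0.04) was not called (edgeR adjusted p 0.141). Tnnt1 made up 0.134% ± 0.00649 of Tnnt2 and Tnnt1 together per exon length in AE3-null hearts and 0.171% ± 0.00621 in wild-type hearts (SD, n = 4 each). The ratio of Tnnt1 to Tnnt2 counts within a library does not depend on library scaling, and it was 0.00109 to 0.00122 in AE3-null libraries and 0.00139 to 0.00152 in wild-type libraries, with no overlap. The mean log2 ratio was -9.77 ± 0.07 in AE3-null and -9.42 ± 0.05 in wild-type hearts (SD, n = 4 each), a difference of -0.35. The two-sided exact permutation p was 0.0286, the smallest that 4 libraries against 4 allow, and 0.0571 after adjustment over the 6 ratios computed.

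The 250 bases before the start of Tnnt2 and of Tnnt1 are shown because the ratio of these troponin T genes differed between all libraries of the genotypes. They are from RefSeq on GRCm38.p6, the + strand of chr1:135836084-135836333 for Tnnt2 and the - strand of chr7:4515976-4516225 for Tnnt1. RefSeq gives 2 starts for Tnnt2, of which the first is shown, and counts per gene do not tell which start was used. Capitals mark the TATA box TATAAA, the MCAT core CATTCC and the E-box CAGCTG, searched on both strands.
Tnnt2: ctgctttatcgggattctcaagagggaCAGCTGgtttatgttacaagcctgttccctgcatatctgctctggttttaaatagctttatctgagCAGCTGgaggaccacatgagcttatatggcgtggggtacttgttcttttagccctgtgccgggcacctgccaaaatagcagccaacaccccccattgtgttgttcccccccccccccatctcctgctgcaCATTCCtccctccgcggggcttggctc
Tnnt1: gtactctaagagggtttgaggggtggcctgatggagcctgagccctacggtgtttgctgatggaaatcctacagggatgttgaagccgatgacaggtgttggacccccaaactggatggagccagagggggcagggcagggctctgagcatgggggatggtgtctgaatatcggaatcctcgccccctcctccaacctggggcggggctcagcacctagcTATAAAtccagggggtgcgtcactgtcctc
The Tnnt2 window held 2 CAGCTG and 1 CATTCC, with CATTCC beginning 27 bases before the start, and no TATAAA. The Tnnt1 window held 1 TATAAA, beginning 30 bases before the start, and neither of the other motifs. Of 32851 RefSeq windows of this length, 12.4% held TATAAA, 12.6% CATTCC and 13% CAGCTG. None of the 3 motifs overlapped another in these windows, and a match is a description of the letters only.

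Troponin I is the inhibitory subunit. Its cardiac gene Tnni3 had 3605, 3503, 3419 and 3380.4 CPM in AE3-null libraries, against 3359, 3387, 3482 and 3360.4 CPM in wild-type libraries. The groups overlapped, and Tnni3 was not called (edgeR adjusted p 0.585), at a log2 fold change of 0.03 with a 95% CI from -0.03 to 0.10. Tnni1, the fetal and slow skeletal form, was close to the lower limit of detection, with 20, 8, 7 and 18 counts in AE3-null libraries and 6, 14, 12 and 7 counts in wild-type libraries. These counts correspond to 0.684 ± 0.229 CPM in AE3-null and 0.622 ± 0.296 CPM in wild-type hearts (SD, n = 4 each), and the groups overlapped. The 95% CI of its log2 fold change ran from -0.64 to 0.93, so neither a fall nor a rise within that interval could be told from no change. Tnni1 was 0.0140% ± 0.00447 of Tnni3 and Tnni1 together per exon length in AE3-null and 0.0131% ± 0.00613 in wild-type hearts. The log2 ratio of Tnni1 to Tnni3 counts was -12.39 ± 0.55 in AE3-null and -12.55 ± 0.70 in wild-type hearts (difference 0.16, two-sided exact permutation p 0.857, adjusted over 6 ratios 0.857).

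Tnnc1 encodes the calcium-binding troponin C shared by heart and slow skeletal muscle. It had 2134, 2109, 2022 and 2050.4 CPM in AE3-null libraries, against 2142, 2171, 2164 and 2261 CPM in wild-type libraries. All AE3-null values were under all wild-type values, though the gap between the nearest of them was small. The log2 fold change of -0.07 (SE 0.03, 95% CI -0.14 to -0.0050) was not called (edgeR adjusted p 0.200), and with other settings or a library left out it ranged from -0.08 to -0.05. The genes of the cardiac complex thus had log2 fold changes of 0.12 for Tnnt2, 0.03 for Tnni3 and -0.07 for Tnnc1, of which the first was called.

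The troponin genes lie in pairs of a troponin I and a troponin T gene. On chromosome 1, RefSeq places Lad1 as the one protein-coding gene between Tnni1 and Tnnt2, and on chromosome 7 Tnnt1 and Tnni3 are direct neighbours. On chromosome 1 the log2 fold changes were 0.15 for Tnni1 (not called, with the wide interval given above) and 0.12 for Tnnt2. On chromosome 7 they were -0.23 for Tnnt1 and 0.03 for Tnni3, neither of them called. Slc4a3 is also on chromosome 1.

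Tropomyosin is a coiled-coil dimer that runs along the actin filament. Tpm1, the alpha form, supplies most tropomyosin of the mouse ventricle, Tpm2 is the beta form of striated and smooth muscle, Tpm3 yields slow skeletal and cytoskeletal forms, and Tpm4 encodes a short cytoskeletal form found in non-muscle cells and at actin structures of muscle cells outside the sarcomere. Tpm1, Tpm2 and Tpm3 make several forms through alternative exons, and counts per gene do not separate them.

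Tpm4 fell by 22.0% in AE3-null hearts. It had 84.2, 93.3, 87.6 and 83.7 CPM in AE3-null libraries, against 108, 107.6, 114 and 116 CPM in wild-type libraries. No library of one genotype reached the other, and AE3-null replicate 2 was the nearest. The means were 87.2 ± 4.43 CPM in AE3-null and 111 ± 4.17 CPM in wild-type hearts (SD, n = 4 each; log2 fold change -0.36, SE 0.04, 95% CI -0.45 to -0.27, edgeR adjusted p 0.000175). The call held in all 17 alternatives, with log2 fold changes of -0.39 to -0.34 and adjusted p-values of 1.33e-09 to 0.00151. Tpm4 was 2.23% ± 0.110 of the 4 tropomyosin genes together per exon length in AE3-null and 2.91% ± 0.140 in wild-type hearts. The annotation places exons of Gm26586 on the opposite strand over part of Tpm4, and with no strand setting given, reads there cannot be assigned with certainty.

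Markers of other cell types moved in the same libraries. Endothelial markers had 4 of 8 genes lower and none higher, with a summed level of 1280 to 1354 CPM in AE3-null against 1483 to 1632 CPM in wild-type hearts. Red blood cell genes summed to 2818 to 3928 CPM in AE3-null and 4059 to 6473 CPM in wild-type hearts. Of the 6 genes listed, 5 were among the deposited counts and Hbb-bt was not, and none of the 5 was called. Hba-a1 and Hba-a2 had identical counts in every library, so the sum holds the same counts more than once and the list gives 4 separate measurements. Of the smooth muscle and pericyte markers 2 of 10, Myh11 and Abcc9, were called higher and none lower, and the list summed to 1596 to 1722 CPM in AE3-null and 1494 to 1539 CPM in wild-type hearts. Abcc9 alone averaged 719.5 CPM in AE3-null and 644.4 CPM in wild-type hearts, and without it the sums of the genotypes overlapped. The CPM of the genotypes also overlapped for every marker of this list except Myh11 and Abcc9. Rgs5 and Kcnj8 had log2 fold changes of -0.05 and -0.10 and were not called. Fibroblast markers overlapped, at 1856 to 1940 CPM in AE3-null and 1742 to 2036 CPM in wild-type hearts, with none of 8 called. No marker of these lists was at 0 in all libraries, and their part in the Tpm4 value was not tested.

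Tpm1 had 8657, 8923, 7969.6 and 8177 CPM in AE3-null libraries, against 8331, 7898, 8551 and 7923 CPM in wild-type libraries. The groups overlapped, and Tpm1 was not called (edgeR adjusted p 0.557), at a log2 fold change of 0.04 with a 95% CI from -0.04 to 0.13. Tpm1 made up 95.8% ± 0.191 of the 4 tropomyosin genes together per exon length in AE3-null and 95.04% ± 0.278 in wild-type hearts (SD, n = 4 each). Tpm2 had 41.6 to 46.2 CPM in AE3-null and 36.7 to 47.1 CPM in wild-type libraries, a log2 fold change of 0.07 (SE 0.07, edgeR adjusted p 0.622). Tpm3 had 55.7 to 65.5 CPM in AE3-null and 57.7 to 69.6 CPM in wild-type libraries, a log2 fold change of -0.11 (SE 0.06, edgeR adjusted p 0.314). The Tpm2 and Tpm3 values of the genotypes overlapped.

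Within libraries, the ratio of Tpm4 to Tpm1 counts was 0.00972 to 0.0110 in AE3-null and 0.0130 to 0.0146 in wild-type libraries, with no overlap. The mean log2 ratio was -6.60 ± 0.07 in AE3-null and -6.20 ± 0.07 in wild-type hearts (SD, n = 4 each; difference -0.40, two-sided exact permutation p 0.0286, adjusted over 6 ratios 0.0571). For Tpm3 to Tpm1 the log2 ratios were -7.14 ± 0.05 in AE3-null and -6.99 ± 0.10 in wild-type hearts (difference -0.15, two-sided exact permutation p 0.0571, adjusted 0.0857). For Tpm2 to Tpm1 they were -7.60 ± 0.13 in AE3-null and -7.63 ± 0.18 in wild-type hearts (difference 0.03, two-sided exact permutation p 0.83, adjusted 0.857).

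**Figure D3:**
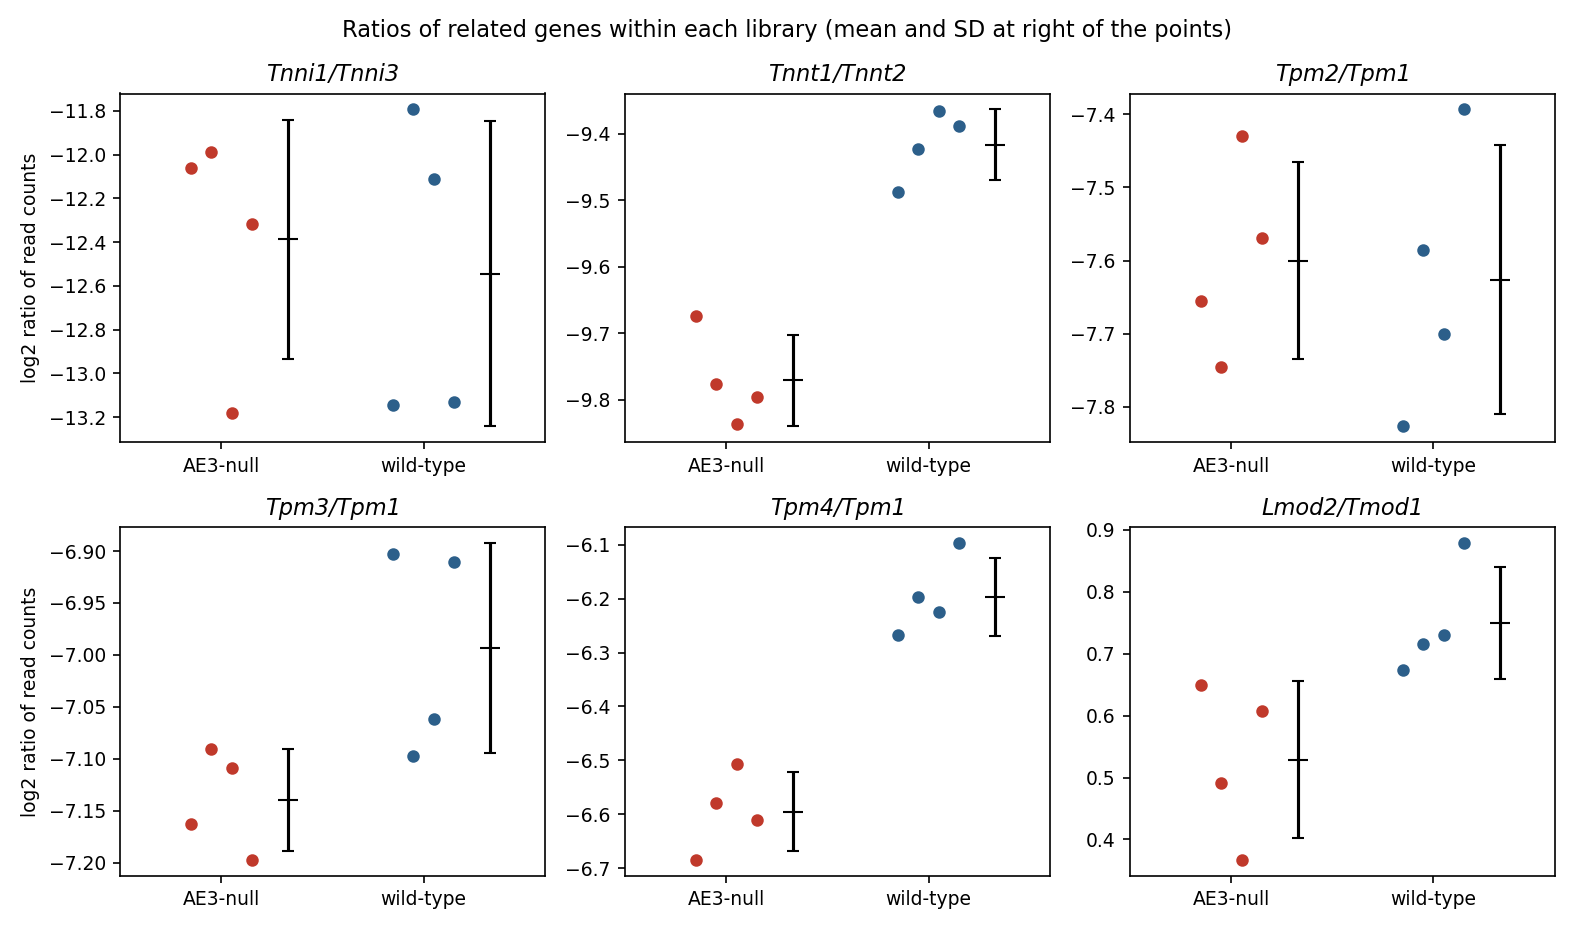
Log2 ratio of the read counts of related genes within each library (vertical axes, not from 0 and with a range of their own in each panel), with the mean and SD of 4 libraries to the right of the points. The AE3-null and wild-type libraries do not overlap for Tnnt1/Tnnt2, Tpm4/Tpm1 and Lmod2/Tmod1, and overlap for the other ratios.

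The windows before the starts of Tpm4 and Tpm1 are shown because Tpm4 was the tropomyosin that fell and Tpm1 is the gene it is set against. They are the 250 bases before the RefSeq starts on GRCm38.p6, the + strand of chr8:72135038-72135287 for Tpm4 and the - strand of chr9:67049214-67049463 for Tpm1, with the same motifs in capitals.
Tpm4: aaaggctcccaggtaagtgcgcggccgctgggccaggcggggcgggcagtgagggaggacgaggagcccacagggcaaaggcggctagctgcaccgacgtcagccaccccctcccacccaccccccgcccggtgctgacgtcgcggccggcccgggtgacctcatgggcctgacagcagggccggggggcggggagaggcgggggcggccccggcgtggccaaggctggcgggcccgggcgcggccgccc
Tpm1: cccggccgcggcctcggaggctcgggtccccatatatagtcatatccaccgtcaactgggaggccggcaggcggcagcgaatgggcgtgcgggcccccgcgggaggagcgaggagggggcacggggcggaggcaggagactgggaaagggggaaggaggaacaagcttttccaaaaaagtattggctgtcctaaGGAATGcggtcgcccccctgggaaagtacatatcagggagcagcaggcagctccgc
The Tpm4 window had 78.8% G and C and 27 CpG, and the Tpm1 window 65.2% and 19. Over all 32851 windows the median was 52.4% with a 95th percentile of 73.6%, and the median number of CpG was 6. Tpm1 held 1 CATTCC, on the opposite strand, beginning 56 bases before the start, and the Tpm4 window held none of the 3 motifs. Among the 10 genes, 1 held TATAAA, 3 held CATTCC and 4 held CAGCTG in at least 1 of their windows.

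Lmod2 encodes the leiomodin of heart muscle, which promotes growth of the filament at its pointed end. It had 683, 594.5, 565 and 667 CPM in AE3-null libraries, against 623, 671, 659 and 703 CPM in wild-type libraries. The groups overlapped, and the AE3-null libraries spread more widely, with a coefficient of variation of 9.01% against 4.999% in wild-type libraries. The log2 fold change of -0.08 (SE 0.06, 95% CI -0.21 to 0.05) was not called (edgeR adjusted p 0.489). Tmod1, the tropomodulin that caps the same end in the heart, rose to 434 ± 7.26 CPM in AE3-null hearts, against 394.7 ± 11.05 CPM in wild-type hearts (SD, n = 4 each; log2 fold change 0.14, SE 0.03, edgeR adjusted p 0.0210). Exons of Tstd2 on the opposite strand overlap those of Tmod1, and Tstd2, chosen for this reason after its values were seen, stood at 189 ± 1.24 CPM in AE3-null and 175.6 ± 4.86 CPM in wild-type hearts (log2 fold change 0.11, edgeR adjusted p 0.0684). The call of Tmod1 was lost without AE3-null replicate 1, 3 or 4 or wild-type replicate 1 or 4 (adjusted p 0.0586 to 0.0822). The ratio of Lmod2 to Tmod1 counts was 1.57, 1.41, 1.29 and 1.52 in AE3-null libraries, against 1.59, 1.64, 1.66 and 1.84 in wild-type libraries. The groups did not overlap, but AE3-null replicate 1 and wild-type replicate 1 were close. The mean log2 ratio differed by -0.22 (two-sided exact permutation p 0.0286, adjusted over 6 ratios 0.0571).

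The rest of the thin filament was followed in a list of 31 further genes, chosen with earlier results of these data known. The counts below therefore describe the list and are no test of it. Of the 31 genes, 30 were in the table and 28 passed the filter on low counts. By edgeR 3 rose and 4 fell among these 28, beside 3.16% and 3.31% of all tested genes. The CPM of the genotypes did not overlap in 10 of the 28, beside 12.2% of all tested genes. Their median log2 fold change was 0.0057 and their median size 0.12, against -0.0018 and 0.09 over all tested genes. The number called was 2 without AE3-null replicate 4, where 407 of all genes were called, against 915 with every library kept. It was 3 without AE3-null replicate 3, where 569 of all genes were called. It was 4 without AE3-null replicate 1, wild-type replicate 1 or wild-type replicate 4, where 581, 658 and 431 of all genes were called. Without wild-type replicate 3 it was 10, and 1727 of all genes were called.

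The 4 genes that fell were Acta1, Neb, Tmod4 and Tmod3. Other genes of the list with known roles in skeletal muscle, chosen here after their values were seen, were not called: the leiomodin gene Lmod3 had a log2 fold change of 0.03 (SE 0.04, edgeR adjusted p 0.737), and the Kelch family genes Klhl41 and Klhl40 had 0.08 (SE 0.04, edgeR adjusted p 0.305) and -0.30 (SE 0.08, edgeR adjusted p 0.0527). Acta1, skeletal actin, had 251, 235, 272 and 283 CPM in AE3-null libraries, against 508, 759, 619 and 963 CPM in wild-type libraries (log2 fold change -1.45, SE 0.21, edgeR adjusted p 0.0139). The wild-type libraries varied widely, and the adjusted p was 0.0519 without AE3-null replicate 4. Neb, the giant ruler protein nebulin of skeletal thin filaments, had 9.01, 9.37, 12.2 and 10.6 CPM in AE3-null libraries, against 14.95, 19.5, 14.5 and 18.3 CPM in wild-type libraries (log2 fold change -0.70, SE 0.11, edgeR adjusted p 0.00255). Tmod4, the tropomodulin of skeletal muscle, averaged 10.4 ± 1.26 CPM in AE3-null and 13.5 ± 1.73 CPM in wild-type hearts (SD, n = 4 each; log2 fold change -0.36, SE 0.10, edgeR adjusted p 0.0471). Its call was lost in 9 of 17 alternatives: with scaling by total counts (adjusted p 0.0532), with limma voom (0.0711), without robust moderation (0.0679), without any single AE3-null library and without wild-type replicate 1 or 4 (up to 0.179). Tmod3, a widely expressed tropomodulin, fell by 0.15 on the log2 scale (SE 0.04, edgeR adjusted p 0.0459), and its call was lost in 12 of 17 alternatives, among them scaling by total counts (adjusted p 0.0980) and every single library left out except wild-type replicate 2.

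Besides Tmod1, the called genes that were higher were Nebl and Svil. Nebl, which encodes the nebulin relative nebulette of heart muscle, had 138, 139, 149.7 and 144 CPM in AE3-null libraries, against 126, 118, 128 and 114 CPM in wild-type libraries (log2 fold change 0.23, SE 0.04, edgeR adjusted p 0.00487). Actc1, cardiac actin, averaged 10632 ± 629 CPM in AE3-null and 11399 ± 638 CPM in wild-type hearts (SD, n = 4 each; log2 fold change -0.10, SE 0.05, edgeR adjusted p 0.236). Svil, which encodes the actin-binding protein supervillin, rose by log2 0.17 (SE 0.04, edgeR adjusted p 0.0210), a call lost without AE3-null replicate 3 or 4 or wild-type replicate 1 (adjusted p 0.0626 to 0.0781). Skeletal genes were also expressed as a percentage of the cardiac gene's counts, a description chosen after the values were seen and not tested. Counts were not divided by exon length here, so the percentages do not compare the levels of different genes. Acta1 was 2.45% ± 0.0741 of Actc1 in AE3-null and 6.21% ± 1.49 in wild-type hearts (SD, n = 4 each, here and below). Neb was 7.19% ± 0.712 of Nebl in AE3-null and 13.96% ± 2.76 in wild-type hearts. Tmod4 was 2.40% ± 0.264 of Tmod1 in AE3-null and 3.44% ± 0.525 in wild-type hearts. Acta1, Neb and Tmod4 had already been called lower, and Nebl and Tmod1 higher, so the direction of these percentages was set by the choice. Other such pairs differed in direction. Lmod3 and Lmod2 had log2 fold changes of 0.03 and -0.08, and Tnni2 and Tnni3 had 0.13 and 0.03, with none called. Tnnt1 and Tnnt2 had -0.23 and 0.12, with only Tnnt2 called.

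**Figure D4:**
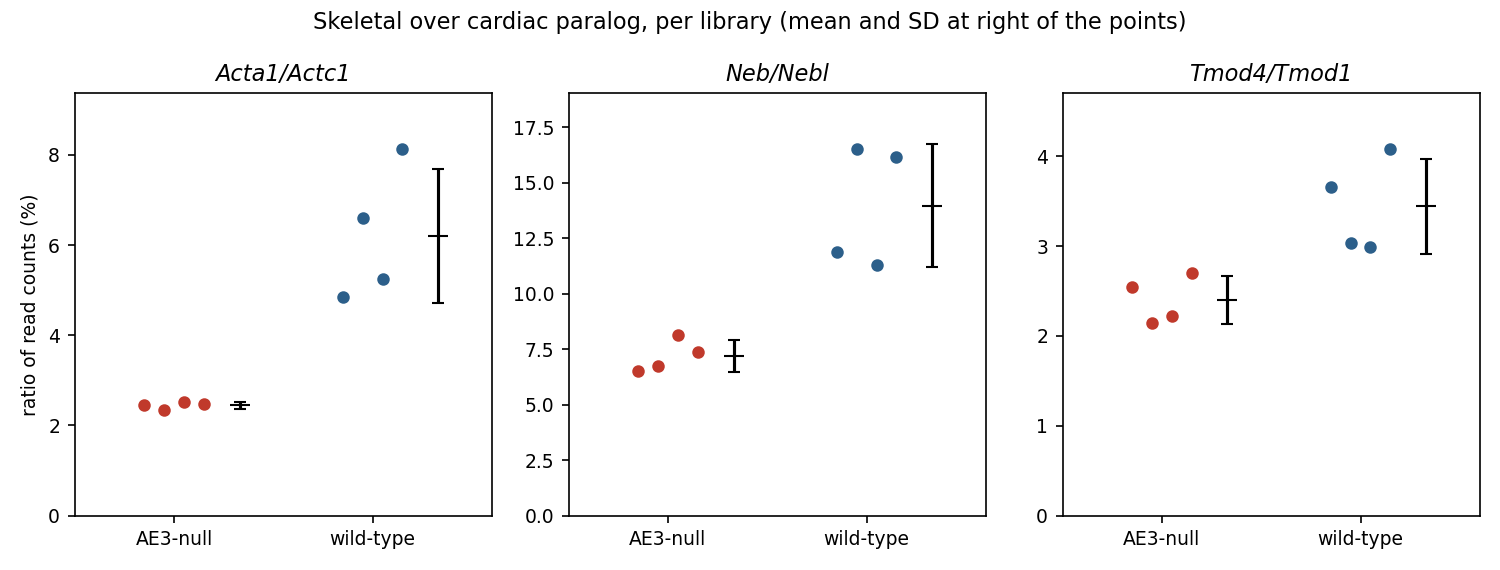
Read counts of a skeletal muscle gene as a percentage of those of its cardiac counterpart (vertical axes, from 0) in each AE3-null and wild-type library. The mean and SD are to the right of the points, and counts were not divided by exon length. The pairs were chosen after the values were seen, from genes already called. The wild-type points of Acta1/Actc1 spread from 4.85% to 8.14%, while the AE3-null points lie between 2.35% and 2.53%.

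The fast skeletal troponins were near the lower limit of detection in both genotypes. Tnni2, which encodes fast skeletal troponin I, averaged 0.655 ± 0.238 CPM in AE3-null and 0.614 ± 0.152 CPM in wild-type hearts (SD, n = 4 each). Tnnt3, its troponin T, averaged 0.368 ± 0.15 CPM in AE3-null and 0.463 ± 0.236 CPM in wild-type hearts. Tnnc2, its troponin C, averaged 0.187 ± 0.116 CPM in AE3-null and 0.137 ± 0.0549 CPM in wild-type hearts. Tnnt3 and Tnnc2 did not pass the filter, and Tnni2 had a log2 fold change of 0.13 (SE 0.33, edgeR adjusted p 0.871). The 11 skeletal muscle markers, these troponins among them, summed to 292.5 to 309 CPM in AE3-null and 283 to 319 CPM in wild-type hearts. None of the 7 tested was called. Myh1, Casq1, Myh4 and Myh2 carried most of this sum, so it says little of the other markers. Myh1 alone averaged 140 CPM in AE3-null and 139 CPM in wild-type hearts. The related cardiac gene Myh6 averaged 48124 CPM in AE3-null and 47853 CPM in wild-type hearts. Whether reads shared with Myh6 entered the counts of Myh1, Myh2 and Myh4 was not tested. Mylpf averaged 0.433 CPM in AE3-null and 0.435 CPM in wild-type hearts, and Pvalb 0.0737 and 0.109 CPM.

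**Figure D5:**
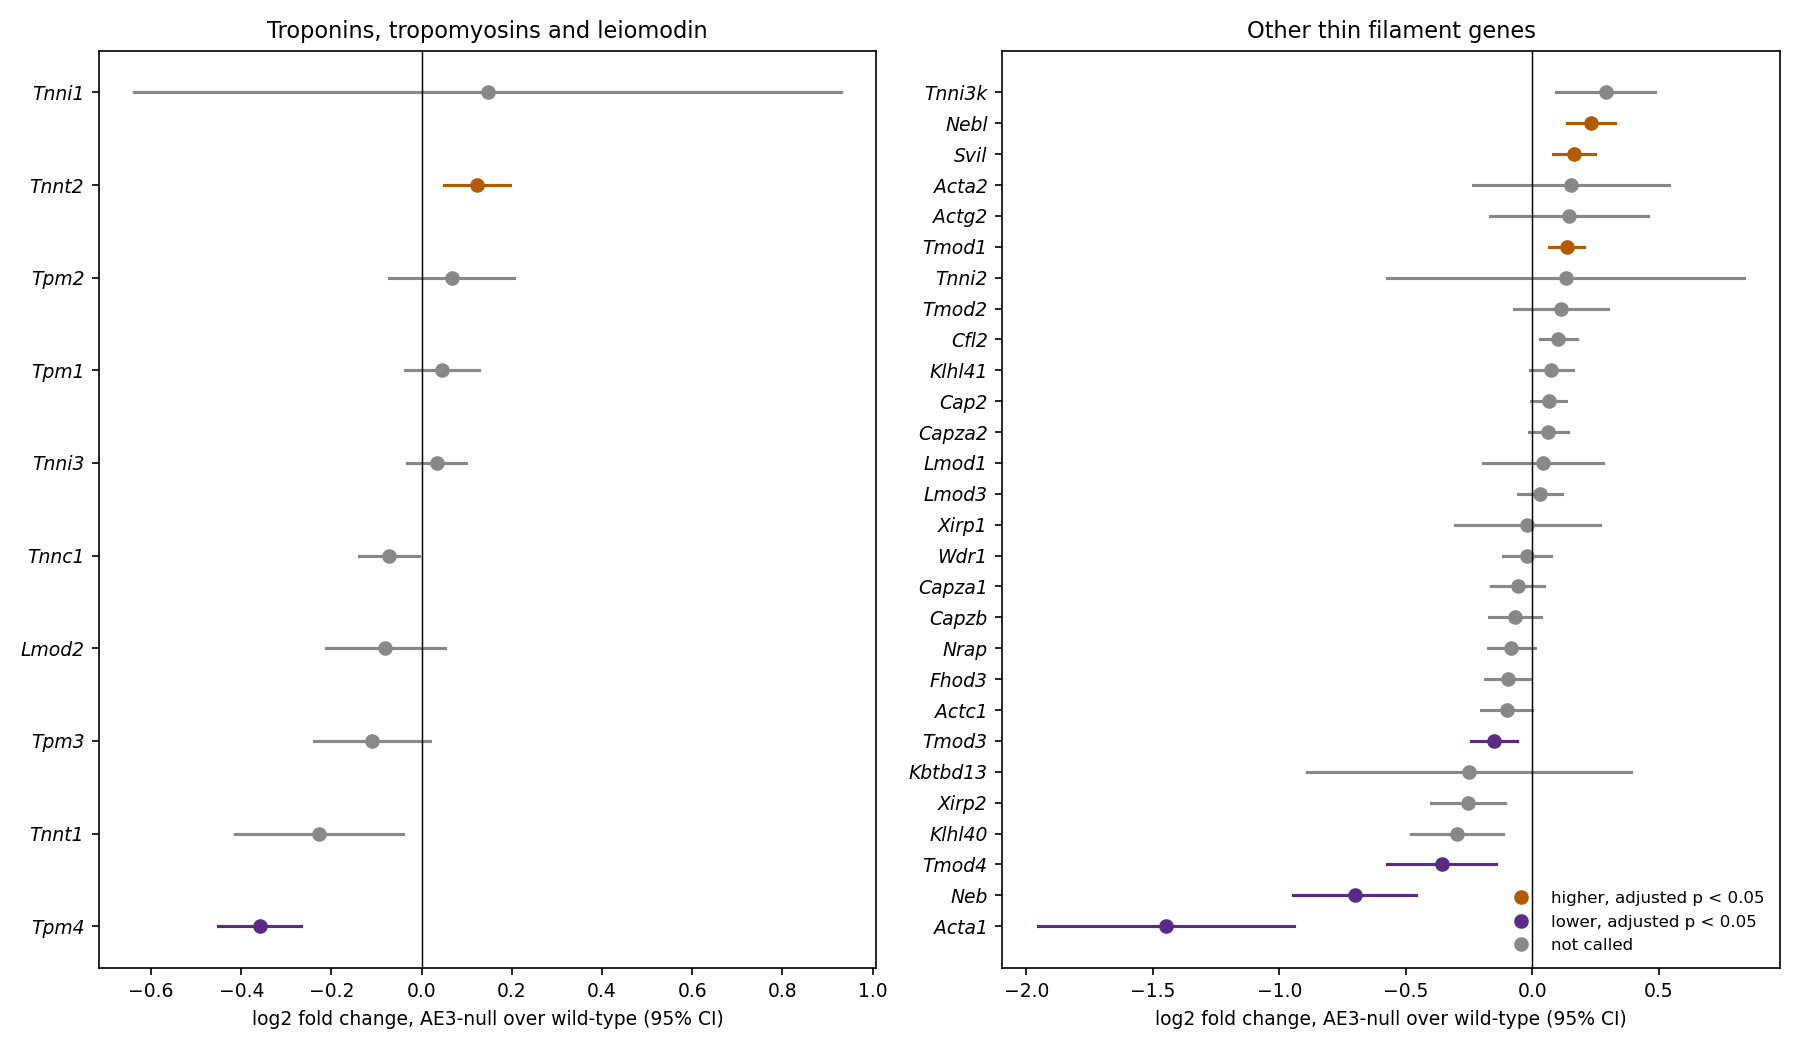
Log2 fold changes of AE3-null over wild-type hearts with 95% confidence intervals from the edgeR fit, for the 10 thin filament genes on the left and the 28 tested genes of the further list on the right; the horizontal axes differ in range. Tpm4 at -0.36 and Tnnt2 at 0.12 are the called genes on the left, and Acta1 at -1.45 and Neb at -0.70 are the lowest on the right.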

How the data were processed

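RNA from hearts of 4 AE3-null and 4 wild-type mice was sequenced, and libraries were grouped by their titles. The deposited table holds raw read counts, which the authors had made per gene and did not normalise. Per the submitters' processing notes, bcl2fastq, CASAVA 1.8, TopHat and DESeq were used with mm9. The counting program, strand setting and annotation were not stated in the labels. The handling of reads that match several related genes, such as the actins or the tropomyosins, is therefore not known. Entrez numbers were paired with symbols through a RefSeq table of GRCm38.p6 (23185 of 23282 genes), and exon lengths and overlaps came from GENCODE M21.

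Genes passing filterByExpr (minimum count 10) were scaled by TMM and tested with edgeR's robust quasi-likelihood method, with no covariates. The standard error is the absolute log2 fold change over the square root of F. The 6 ratios were tested by two-sided exact permutation over 70 splits, with Benjamini-Hochberg adjustment. Library totals were 9133628 to 27078351 counts, and precision also rests on the spread among the 4 libraries of each genotype. Chi-square values per gene between libraries of 1 genotype were 2.57 to 7.63, so no library was a duplicate. The procedure was run on simulated data. The planted changes were larger than those of Tnnt2, Tmod1, Tmod3, Svil and Nebl, so the simulation does not cover calls of that size. Named are the 10 members, the called genes of the further thin filament list, the fast skeletal troponins, Tmod1, Actc1 and Slc4a3. Members and lists were chosen with earlier results of these data known. Alternatives were other scalings, filters and tests, the replicate number as a block, and each library left out in turn. Versions were 4.3.3 of R, 4.0.16 of edgeR, 3.58.1 of limma and 1.42.0 of DESeq2.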

Additional observations from a re-analysis of the deposited data

Results flagged for a closer look

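In 56 groups of 4 libraries examined for a library far from the others, 2 were found, and chance gives about 1 in 20. Tnnt2 stood at 7012 CPM in wild-type replicate 3, under the other wild-type libraries at 7275 to 7317 CPM; without it, the log2 fold change of Tnnt2 was 0.11 and the edgeR adjusted p 0.0566. Tmod3 stood at 68.4 CPM in AE3-null replicate 1, above the other AE3-null libraries at 67.4 to 67.6 CPM; the nearest wild-type library stood at 70.7 CPM.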

How the results depend on the processing

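Across 17 alternatives (16 for Tnni1 and Tnni2, which a stricter filter removed) the direction of the log2 fold change was kept for the other 9 members and for Actc1, Acta1, Tmod1, Tmod3, Tmod4, Neb, Nebl and Svil. It was not kept for Tnni1, which ranged from -0.0528 to 0.42 with single libraries left out, or for Tnni2, which ranged from -0.24 to 0.28. The members called numbered 2 except without robust moderation (1) and with single libraries left out (1 to 2), where Tpm4 remained called. The further thin filament genes called numbered 2 to 10 and all genes called 407 to 1727 with single libraries left out, the lowest without AE3-null replicate 4 and the highest without wild-type replicate 3. All genes called numbered 581, 569 and 431 without AE3-null replicate 1, AE3-null replicate 3 and wild-type replicate 4. With scaling by total counts 528 were higher and 361 lower, against 447 and 468, and the median log2 fold change was 0.0177. Over single libraries left out the difference in log2 ratio ranged from -0.0418 to 0.42 for Tnni1/Tnni3, -0.0402 to 0.10 for Tpm2/Tpm1, -0.18 to -0.12 for Tpm3/Tpm1, -0.39 to -0.33 for Tnnt1/Tnnt2, -0.43 to -0.37 for Tpm4/Tpm1 and -0.26 to -0.17 for Lmod2/Tmod1. Same-numbered libraries had correlations of -0.018 to 0.192, and 2 of 8 libraries correlated best with their own number. With the replicate number as a block, 1002 genes, 2 members and 8 further thin filament genes were called, and the paired ratio tests could not go below a p of 0.125. The causes were not tested. Depth limits Tnni1, at 6 to 20 counts per library, and the fast skeletal troponins.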
